A study of Mus musculus with 20 samples.

Results

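The 500 widest acetylated domains shared by 10 libraries of mouse hepatocyte chromatin are described here. Histone H3 acetylated at lysine 27 (H3K27ac) was mapped by chromatin immunoprecipitation and sequencing, and each library came with its own list of called regions. Regions of different lists that shared 1 bp or more were joined into 46767 merged regions, of which 12550 were called in all 10 libraries and 12287 of those lay on autosomes. Width means the called length in bp summed inside a merged region in a library, and the 500 domains are the autosomal regions with the largest mean width over the 10 libraries. The domains were thus chosen by width, and their widths and the steadiness of those widths are given as a description. The choice used the mean over both ages and not their difference. A domain wide at 1 age only could still enter through that age. Counts by direction of the age difference may therefore not be independent of the choice.

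Hepatocytes, the parenchymal cells of the liver, had been isolated by perfusion in 2 steps from young mice (5 months, substrain C57BL/6N) and old mice (23 months, substrain C57BL/6J), with 5 H3K27ac libraries per age. Age and substrain coincide in the labels, so they cannot be told apart in any comparison below. The series holds 20 samples, of which 10 are inputs, and inputs entered only through the input tags listed for each region. Human chromatin had been added to the samples as a spike-in, but spike-in scaled values are not used here, and a change of total acetylation between ages could not be measured. Whether the libraries stem from separate animals is not stated, so that the p-values below reflect only how far these samples scatter, which may be technical. In whole-population chromatin, fewer acetylated cells and less acetylation per cell cannot be told apart.

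H3K27ac is laid down on nucleosomes at active enhancers and promoters. Most acetylated regions are short, flanking a single regulatory element, while a minority extends over long stretches of clustered enhancers or over the whole start of a gene. Such long domains are known for lying at genes that define a cell type, which in hepatocytes are transcription factors of the nuclear receptor, FoxA, HNF and C/EBP families and the genes of plasma proteins and liver metabolism.

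The promoters printed next are shown because the domains held starts of very different base composition. Each runs from 250 bases before to 50 bases after an annotated start, on the gene's strand, from RefSeq on GRCm38.p6 (the assembly called mm10 in the region lists), and CpG dinucleotides are in capitals. The domains of 2 transcription factors come first: Cebpb, a C/EBP factor of the acute-phase response (chr2:167688665-167688964, plus strand), with 50 CpG, and Klf15, a Krüppel-like factor of gluconeogenesis and amino acid catabolism (chr6:90462326-90462625, plus strand), with 47 CpG. They are followed by 2 secreted proteins: Gc, the vitamin D binding protein (chr5:89457849-89458148, minus strand), with 0 CpG, and Fga, the fibrinogen alpha chain (chr3:83025903-83026202, plus strand), with 3 CpG. The last are 3 starts in domains with fewer tags in old samples: Ahcy (chr2:155074448-155074747, minus strand), with 13 CpG, Alas1 (chr9:106247905-106248204, minus strand), with 27 CpG, and Cyp27a1 (chr1:74713285-74713584, plus strand), with 10 CpG.
Cebpb: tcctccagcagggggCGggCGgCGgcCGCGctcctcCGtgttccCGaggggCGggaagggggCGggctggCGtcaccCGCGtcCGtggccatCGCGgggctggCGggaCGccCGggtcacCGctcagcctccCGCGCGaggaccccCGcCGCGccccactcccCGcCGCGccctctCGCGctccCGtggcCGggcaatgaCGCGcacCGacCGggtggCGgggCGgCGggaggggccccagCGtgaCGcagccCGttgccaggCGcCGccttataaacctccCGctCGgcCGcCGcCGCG
Klf15: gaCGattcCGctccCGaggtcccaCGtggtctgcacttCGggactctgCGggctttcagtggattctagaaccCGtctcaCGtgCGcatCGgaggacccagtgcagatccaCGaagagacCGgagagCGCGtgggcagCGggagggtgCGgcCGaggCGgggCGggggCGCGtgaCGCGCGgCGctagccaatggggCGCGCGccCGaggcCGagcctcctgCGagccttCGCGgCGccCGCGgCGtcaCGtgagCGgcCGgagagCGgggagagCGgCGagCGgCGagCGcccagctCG
Gc: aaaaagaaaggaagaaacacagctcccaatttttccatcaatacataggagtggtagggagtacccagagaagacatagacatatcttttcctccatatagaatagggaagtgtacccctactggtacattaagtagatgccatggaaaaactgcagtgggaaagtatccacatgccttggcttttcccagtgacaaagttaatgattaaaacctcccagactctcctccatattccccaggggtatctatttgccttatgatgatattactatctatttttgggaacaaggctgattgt
Fga: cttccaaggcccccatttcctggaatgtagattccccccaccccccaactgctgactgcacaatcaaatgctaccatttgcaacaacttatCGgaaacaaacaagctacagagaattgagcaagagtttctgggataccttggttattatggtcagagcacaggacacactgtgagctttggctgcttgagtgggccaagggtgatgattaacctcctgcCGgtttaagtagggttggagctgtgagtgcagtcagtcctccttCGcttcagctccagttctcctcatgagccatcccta
Ahcy: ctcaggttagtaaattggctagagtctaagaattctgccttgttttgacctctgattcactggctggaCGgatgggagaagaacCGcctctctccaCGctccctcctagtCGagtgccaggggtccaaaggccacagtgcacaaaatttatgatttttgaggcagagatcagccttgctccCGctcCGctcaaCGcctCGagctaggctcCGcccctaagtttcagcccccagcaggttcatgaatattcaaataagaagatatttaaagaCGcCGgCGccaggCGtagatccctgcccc
Alas1: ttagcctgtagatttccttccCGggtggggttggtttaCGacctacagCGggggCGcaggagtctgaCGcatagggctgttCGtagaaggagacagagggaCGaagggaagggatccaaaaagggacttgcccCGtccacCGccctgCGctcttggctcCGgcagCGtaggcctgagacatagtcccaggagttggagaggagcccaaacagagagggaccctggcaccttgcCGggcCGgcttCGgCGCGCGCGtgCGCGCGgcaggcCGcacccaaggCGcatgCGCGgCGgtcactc
Cyp27a1: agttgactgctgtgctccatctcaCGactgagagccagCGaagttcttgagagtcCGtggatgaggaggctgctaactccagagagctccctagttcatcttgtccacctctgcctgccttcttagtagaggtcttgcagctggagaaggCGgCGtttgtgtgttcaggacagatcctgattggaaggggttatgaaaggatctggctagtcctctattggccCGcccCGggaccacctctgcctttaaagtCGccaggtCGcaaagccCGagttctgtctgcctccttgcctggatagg
The capitals are dense through the Cebpb and Klf15 windows, sparse in that of Fga and missing from that of Gc.

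RefSeq starts could be placed in the domains for 316 genes with 398 starts. The median start in a domain had 17 CpG in its 300-base window, against 22 for the 7143 starts in other regions called in all 10 libraries and 13 for all 21263 starts in the table. Starts with fewer than 5 CpG made up 18.1% of those in domains, 5.84% of those in other called regions and 28.4% of all starts. Starts with more than 15 CpG made up 52.8%, 72.5% and 44.8%. The 17 domain starts of the transcription factor list had a median of 25 CpG, with a range of 2 to 55, and the 27 domain starts of the secreted protein list a median of 5, with a range of 0 to 40, so that the lists overlapped. In other called regions the starts of these lists had medians of 12.5 and 4. Domains whose richest start held more than 15 CpG (168 domains) had a median of 91.6 scaled tags per kb, those with 5 to 15 CpG (66 domains) 78.1, those with fewer than 5 (39 domains) 61.5, and those with no start in the table (227 domains) 68.3.

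Short motifs were counted on both strands of these windows, and none of the motifs is contained in another. The HNF1 core GTTAAT was in 9.30% of domain windows, 4.33% of windows in other called regions and 6.25% of all windows. The ETS motif CCGGAAG was in 8.29%, 21.0% and 11.6%. The TATA box TATAAA was in 10.6%, 6.65% and 12.6%, and the Sp1 motif GGGCGG in 58.3%, 65.3% and 46.2%. The C/EBP form TTGCNNAA was in 11.8%, 8.41% and 10.2%, and the HNF4 form AAGTCCA in 4.02%, 3.47% and 3.96%. The remaining motifs were CCAAT (36.2%, 38.2% and 38.2%) the E-box CACGTG (9.80%, 11.2% and 7.84%) and the FoxA form TGTTTAC (3.77%, 2.86% and 3.01%). Such matches describe letters in the window and not bound sites.

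Precursors of microRNAs, short RNAs that repress messenger RNAs through their seed, lay in 14 domains. That was 2.80% of domains, against 2.2% of the 500 regions next in mean width and 0.821% of all regions called in all 10 libraries. The longer a region, the more room it has for such precursors. The mature forms of 6 widely studied ones are printed 5′ to 3′ with the seed (bases 2 to 8) in capitals, from RefSeq on GRCm38.p6. They are miR-22-3p (chr11:75463772-75463793, plus strand, domain of Wdr81), miR-21a-5p (chr11:86584120-86584141, minus strand, domain of Vmp1), miR-101b-3p (chr19:29135338-29135356, plus strand, domain of Rcl1), miR-193a-3p (chr11:79712009-79712030, plus strand) and miR-365-3p (chr11:79726467-79726488, plus strand), both in the domain near Rab11fip4, and miR-26b-5p (chr1:74394324-74394344, plus strand, domain of Slc11a1 and Ctdsp1).
miR-22-3p: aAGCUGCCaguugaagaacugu
miR-21a-5p: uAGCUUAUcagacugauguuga
miR-101b-3p: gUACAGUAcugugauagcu
miR-193a-3p: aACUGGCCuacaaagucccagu
miR-365-3p: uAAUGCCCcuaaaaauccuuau
miR-26b-5p: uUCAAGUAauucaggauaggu
No 2 of these 6 share a seed. The domain with miR-21a, a microRNA raised in injured and proliferating liver, was 11536 ± 979 bp wide (SD, n = 10) and that with miR-22 8250 ± 1427 bp. None of these domains passed the age test described below. The largest differences in scaled tags were 0.44 on the log2 scale, old minus young, for the miR-26b domain (limma adjusted p = 0.142), and -0.43 for the domain of miR-193a and miR-365 (limma adjusted p = 0.0754).

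The 10 libraries held 6295930 to 15544145 tags each and 21213 to 30195 called regions. Tags in called regions made up 34.6% to 48.2% of the total in young samples and 24.5% to 35.8% in old ones, a share called IP efficiency here. The fragment length given in the lists was 414 to 444 bp in 9 libraries and 620 bp in young replicate 5. The hepatocyte label was checked at marker genes: 6 to 7 of 7 hepatocyte markers had a called region in every library, with summed scaled tags of 3819 to 5566 in young and 1576 to 3915 in old samples. Of 10 Kupffer cell markers only Cd68 was called in any library (183.5 to 530.0 tags in the 10 libraries), and of 8 stellate markers only Reln (0 to 144.0). Markers of the sinusoidal endothelium were called for 6 of 8 genes in at least 1 library, with summed scaled tags of 66.8 to 165.8 in young and 0 to 164.8 in old samples. Cholangiocyte markers were called for 2 of 5 genes (Sox9 and Spp1, 221.6 to 580.4 tags) and lymphocyte markers for 1 of 7 (Cd79a, 0 to 203.5).

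The domains spanned a wide range of widths. The median of the mean widths was 9581 bp, with a range of 7747 to 29728 bp, against a median of 2325 bp over all 12550 regions and 6490.5 bp over the 500 regions ranked next. The plot of width against rank shows no step at rank 500. The 3 domains just inside were that of Rnf186 and Tmco4 (7760 bp), that of Apoa5 and Zpr1 (7754 bp) and one near Rreb1 (7747 bp). The 3 regions just outside were those of Frmd4b (7741 bp), of Dhdh and Nucb1 (7739 bp) and of Habp4 (7738 bp). Of the 500 domains, 189 were at least 7747 bp wide in all 10 libraries. In some, the mean of 1 age lay below that width. Selenbp2 had means of 15040 bp in young and 7178 bp in old samples, and Mup20 7445 and 11358 bp. The old mean was also below it at domains of Ahcy, Alas1, Cyp27a1, Por, Slc25a51, AI182371 with Cntrl and St3gal3, described below. Of the 500, 468 were also among the 500 widest by the young libraries alone, 464 by the old alone, and 395 to 439 by a single library. These rankings share lengths with the mean over 10 libraries, so part of that agreement was built in. The young-only and the old-only ranking, which share no library, had 432 of their 500 in common.

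**Figure D1:**
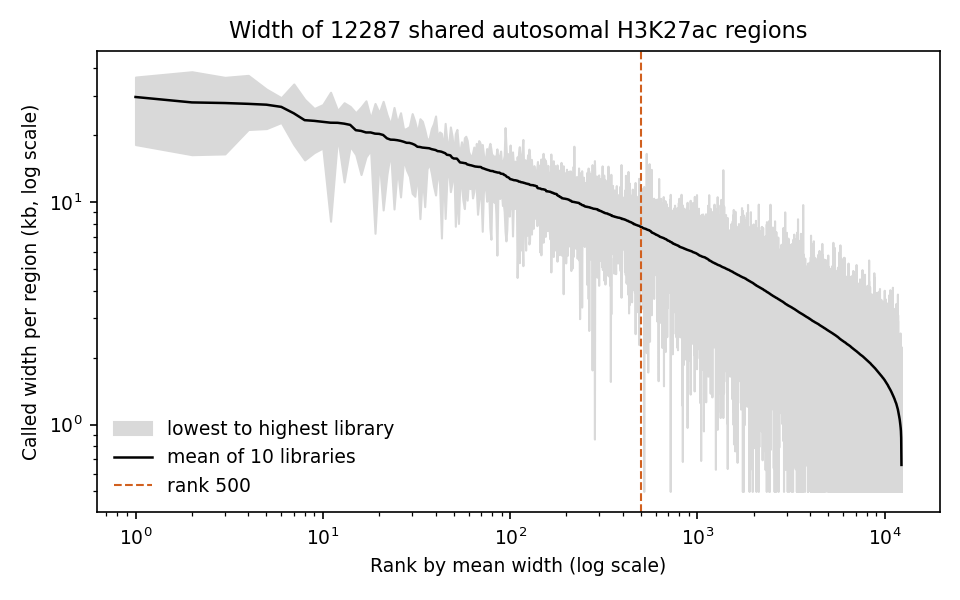
Called width in kb of each of the 12287 shared autosomal regions against its rank by mean width, both on log scales, with a black line for the mean over 10 libraries, a grey band from the lowest to the highest library and a dashed line at rank 500. Width falls smoothly through rank 500, from 7747 bp for the last domain to 7741 bp for the first region outside.

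The widest domain lay over Neat1, the long noncoding RNA that builds paraspeckles, and the neighbouring gene Frmd8 (chr19:5813835-5852333). Its width was 34421, 36542, 33964, 33961 and 31683 bp in the young samples and 27735, 30297, 27970, 22548 and 18163 bp in the old ones, a mean of 29728 ± 5781 bp (SD, n = 10). All 5 old samples were below all 5 young samples. Relative to the median region of each library the ages overlapped, and the width difference of -0.33 ± 0.11 (SE) on the log2 scale did not pass the test (limma adjusted p = 0.338). The domain was called in 2, 3, 4, 3 and 4 pieces in young and 9, 5, 7, 7 and 7 in old samples. The old samples thus had more, separately called pieces, with no overlap between ages.

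Several of the other widest domains lay inside genes. Mtss1, an actin-binding scaffold of the plasma membrane, held the domains ranked 2 and 4 (chr15:59010769-59052235 and chr15:58971774-59009240), with mean widths of 28104 ± 7051 and 27693 ± 5915 bp (SD, n = 10). In the first, the width was 29941, 38618, 27337, 35128 and 35471 bp in young and 25307, 28363, 19513, 25008 and 16357 bp in old samples. The ages overlapped narrowly there. Zbtb16, which encodes the zinc finger factor PLZF, held the domain ranked 3 (chr9:48719512-48759057), 27927 ± 7764 bp wide. Its width was 29971, 35496, 30718, 36431 and 35055 bp in young and 32506, 26236, 19858, 16489 and 16507 bp in old samples, so that old replicate 1 lay among the young samples. It was called in 5, 5, 4, 3 and 3 pieces in young and 7, 10, 11, 8 and 11 in old samples, with no overlap.

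Efna1, which encodes the ephrin-A1 ligand, held the domain ranked 5 (chr3:89273827-89307868), 27450 ± 3571 bp wide (SD, n = 10). Rank 6 was the apolipoprotein cluster Apoe, Apoc1, Apoc4 and Apoc2 with Tomm40 (chr7:19673521-19704575), whose products ride on plasma lipoproteins. The width of the cluster was 23358, 29509, 24170, 29164 and 29310 bp in young and 28606, 27434, 26813, 27168 and 22828 bp in old samples, which overlapped fully. The remaining 6 of the 12 widest were E030018B13Rik inside Klf13 (25111 ± 5416 bp), Sdc4, a heparan sulphate proteoglycan (23387 ± 4034 bp), Slc38a4, an amino acid transporter (23217 ± 2962 bp), Ttc39c (22977 ± 3204 bp), Shb, an adaptor of tyrosine kinase signalling (22778 ± 7296 bp), and Nat8f2 (22755 ± 2076 bp).

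Neighbouring domains lay a median of 1.72 Mb apart along the chromosomes. Of 481 such pairs on the same chromosome, 31 lay within 10000 bp and 87 within 100000 bp. Mtss1, Prkce and Scp2 each held 3 domains, with summed mean widths of 70258, 33895 and 30615 bp. Prkce encodes protein kinase C epsilon, a lipid-activated kinase, and Scp2 a carrier of sterols and acyl chains in peroxisomes. Other genes held 2 domains, among them Adk, Ahcy, Hnf4a, Igf1, Per2, Ppara and Zbtb16. Chromosome 4 held the most domains, 46, and chromosome 16 the fewest, 8.

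A protein-coding gene end (start or end of the annotated gene) lay in or within 1 kb of 329 domains (65.8%, against 53.8% of all regions called in all 10 libraries). Another 109 lay inside gene bodies (21.8%, against 26.96%) and 62 between genes (12.4%, against 19.3%). An end of a long noncoding RNA lay at 158 domains (31.6%, against 15.5%). A start of a protein-coding gene lay in 273 domains (54.6%, against 45.2%), and 38 domains held 2 or more starts (7.60%, against 5.70%). Of the 500 regions ranked next, 58% lay at gene ends, 28% in gene bodies and 14% between genes. A long noncoding end lay at 25.6% of them, a start in 47.6%, and 2 or more starts in 4.4%. Longer regions have more room for any annotated feature, so the shares of the domains are a description and are not set against regions of the same length.

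The deposited tags were scaled to 10000000 per library, and density means scaled tags per kb of called length. The median density was 77.0 tags per kb in the domains, 75.9 in the 500 regions ranked next and 70.9 over all regions, and the median fold over input 11.9, 11.6 and 10.5. The domains thus stood close to the regions next in width. Domains at gene ends had a median of 84.7 tags per kb, those in gene bodies 61.5 and those between genes 68.0. The densest was that of Trib1, a pseudokinase that restrains hepatic lipogenesis (chr15:59646854-59656266), with 246, 278, 248, 254 and 198 tags per kb in young and 198, 177, 225, 173 and 186 in old samples. The ages overlapped there. Next in density were Irf2bp2, a transcriptional corepressor (212.9 tags per kb), Zfp36l1, an RNA-binding protein of mRNA decay (191.7), Cebpb (182.5) and the region near Mkln1 (181.5). The least dense were Mup20, a major urinary protein gene of a multigene family whose reads are hard to assign (31.1), a region near Paqr9 (32.7), Dapk1 (34.03), Bcl2l1, an inhibitor of apoptosis (34.2), and Adcy9, an adenylyl cyclase (34.3).

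The median coefficient of variation of width between libraries was 15.4% in the domains, 17.1% in the 500 regions ranked next and 20.3% over all regions, a measure bound to the width that chose the domains. The part called in all 10 libraries, the core, was a median of 45.2% of the span, 44.5% in the 500 ranked next and 39.4% over all regions. Only 27 domains (5.40%) were called as 1 piece in every library, against 9.80% of the 500 ranked next and 65.3% of all regions. The widest of these 27 covered Mapkapk2, a kinase acting below p38 (chr1:131081697-131098400), with 15391, 16563, 15468, 15545 and 15604 bp in young and 15576, 15548, 16026, 16127 and 15385 bp in old samples. These 10 values were nearly equal, and the core was 92.1% of the span. The next widest in 1 piece were Mup3, Fam160b1, the clock repressor Nfil3 and Id3, an inhibitor of basic helix-loop-helix factors. At the other end, the domains with the most pieces were at Mtss1 (a mean of 6.80 pieces), Zbtb16 (6.70), E030018B13Rik (5.80), Shb (5.70) and Ppp2r5e (5.60).

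Of the 500 domains, 195 held a single annotated start of 1 gene. Around these starts the called length reached further downstream than upstream: the median was 7007 bp downstream and 2859 bp upstream. Of the 195, 137 (70.3%) had more called length downstream. In 26 of the 195 the downstream length exceeded the length of the gene itself. Among the 178 such regions of the 500 ranked next, the share was 78.1%. In the young libraries the mean called length was 7662 ± 688 bp downstream and 3923 ± 284 bp upstream (SD, n = 5). In the old libraries it was 6757 ± 830 bp and 3593 ± 317 bp. Both lengths overlapped between ages.

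**Figure D2:**
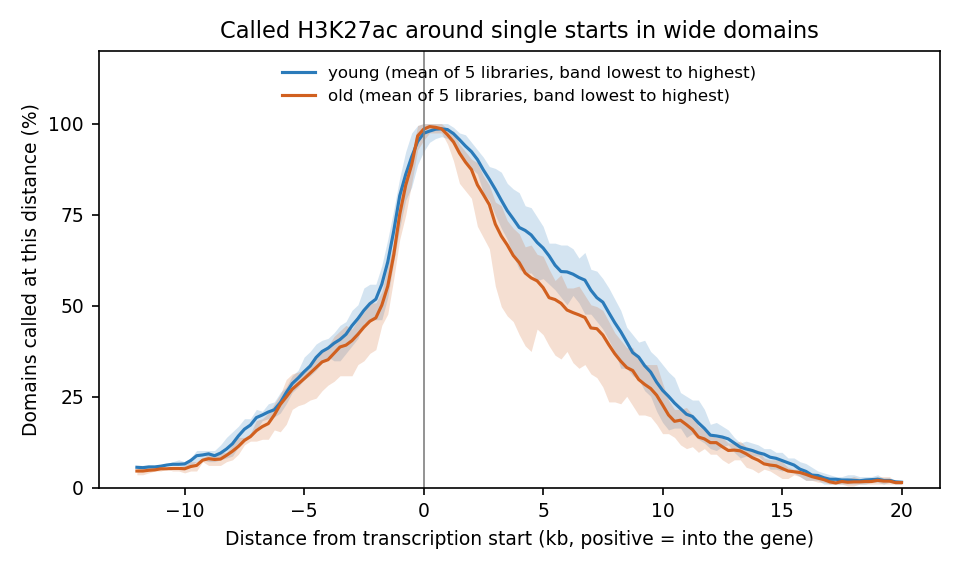
Percent of the 195 domains with a single annotated start that were called at each distance from the start in kb, positive downstream of the start, with a line for the mean of 5 young and of 5 old libraries and a band from the lowest to the highest library. At the start itself 97.3% of domains were called in young and 98.5% in old libraries, and at 7 kb downstream 54.3% and 43.9%.

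Gene lists of hepatocyte function were compared with the domains. As a reference, 445 of the 7856 protein-coding genes with a region in all 10 libraries at a gene end (5.66%) had an end in a domain. Lists and reference are counts, with no test. The share was 15 of 33 (45.5%) for hepatocyte transcription factors, 31 of 84 (36.9%) for secreted proteins, 6 of 17 (35.3%) for circadian clock genes, 20 of 58 (34.5%) for lipid and cholesterol metabolism, 11 of 34 (32.4%) for glucose metabolism and insulin signalling, and 15 of 59 (25.4%) for amino acid, urea and one-carbon metabolism. It was 7 of 43 (16.3%) for immediate early and stress genes, 7 of 51 (13.7%) for bile acid and drug metabolism and 3 of 22 (13.6%) for acute phase and NF-kB genes. Oxidative phosphorylation subunits had 4 of 56 (7.14%), cytosolic ribosomal proteins 1 of 69 (1.45%) and interferon-stimulated genes 0 of 32. The single ribosomal gene, Rpl18, shares its domain with the clock factor Dbp. With gene bodies in place of gene ends, 1 of 33 interferon-stimulated genes lay in a domain.

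**Figure D3:**
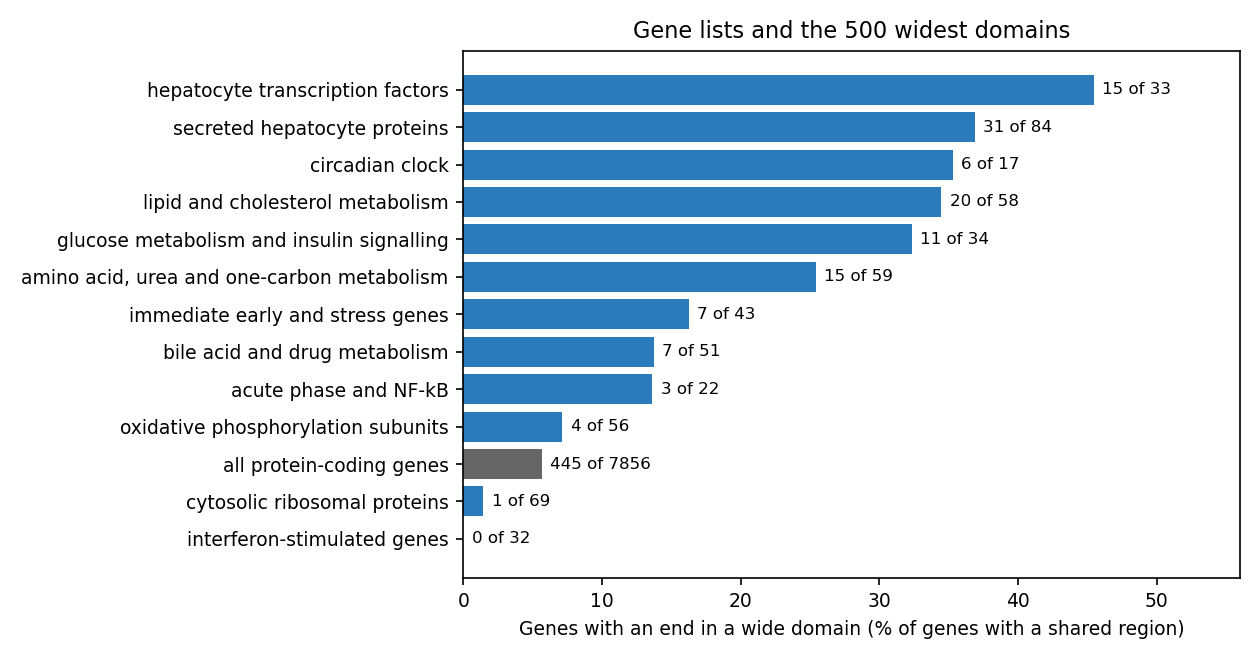
Percent of the genes of each list with an end in 1 of the 500 domains, among genes with a region in all 10 libraries, with the counts beside the bars and all protein-coding genes (5.66%) as a grey bar. The bars run from 45.5% for hepatocyte transcription factors to 0% for interferon-stimulated genes.

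The genes of each list are given by the width of domains at their gene ends, as in the counts above. The transcription factor list was led by Foxa3 (17609 ± 3149 bp, SD, n = 10), a pioneer factor of the FoxA family, and Bcl6, a zinc finger repressor (17541 ± 1442 bp). Nuclear receptors followed: Rxra, the common heterodimer partner (17240 ± 3858 bp), Nr1i2, the xenobiotic receptor PXR (16746 ± 780 bp), and Ppara, the receptor that drives fatty acid oxidation in fasting (15036 ± 1930 bp). Cebpa (14645 ± 1059 bp), Klf15 (14433 ± 2658 bp), Klf9 (12183 ± 1624 bp) and Foxa1 (11557 ± 1554 bp) had domains as well. The narrower ones were those of Prox1, Nr1i3, Onecut2, Nr0b2, Cebpb and Zfp36l1, from 10989 to 9011 bp. Zfp36l1 stood on this list although its product binds RNA. The domains of this list had a median of 122.4 tags per kb, those of the clock list 138.5 and those of the secreted protein list 74.9. Hnf4a, the nuclear receptor on which much of the hepatocyte programme depends, held 2 domains inside its gene body, ranked 192 and 442.

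Among secreted proteins, the apolipoprotein cluster was followed by Ahsg, the plasma glycoprotein fetuin-A (21079 ± 2704 bp, SD, n = 10), and by Apoa1 with Apoc3 (20591 ± 2031 bp), the apolipoproteins of high-density and triglyceride-rich particles. The clock list was led by Dbp (12476 ± 2427 bp) and Tef (10914 ± 2447 bp), activators of the PAR family, Cry2, a core repressor (10837 ± 3104 bp), and Nfil3 (10707 ± 352 bp). Per2, another core repressor, had a wider domain in its gene body (11947 ± 1099 bp) than at its end (7853 ± 921 bp). Among lipid genes, Dgat2, the last enzyme of triglyceride synthesis (19089 ± 6232 bp), Cpt1a, the gate of mitochondrial fatty acid oxidation (14195 ± 1566 bp), and Insig2, a brake on sterol synthesis (11966 ± 1116 bp), had wide domains.

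Pck1, the cytosolic enzyme that commits carbon to gluconeogenesis, led the glucose list (15872 ± 2164 bp, SD, n = 10), before Pygl, the liver glycogen phosphorylase (12077 ± 1912 bp), Slc2a2, the glucose transporter GLUT2 (11559 ± 1203 bp), and Gcgr, the glucagon receptor (10841 ± 880 bp). The amino acid list was led by the glutamine transporter Slc38a3 (20593 ± 3885 bp), the folate enzyme Aldh1l1 (18706 ± 2001 bp), the mitochondrial aspartate and glutamate carrier Slc25a13 (18500 ± 1996 bp) and Mat1a, which makes S-adenosylmethionine in liver (18328 ± 4521 bp), while Slc38a4, also on this list, had its wider domain described above inside its gene body. Bile acid and drug genes were led by Cyb5a (14123 ± 846 bp), Cyp2f2 (12153 ± 2694 bp), Abcc2, an exporter into bile (11793 ± 2058 bp), and Abcb4, which moves phospholipid into bile (9625 ± 1692 bp). Zfp36, a decay factor for cytokine messages (12656 ± 1576 bp), and the survival factor Mcl1 (11147 ± 1695 bp) led the stress list. From the joint list of acute phase and NF-kB genes came the interleukin receptor Il1r1 (9806 ± 1400 bp), the cytokine brake Socs3 (8930 ± 2736 bp) and the TNF receptor Tnfrsf1a (8349 ± 1731 bp).

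Called length was also compared library by library, as a description with no test. The mean width over the 500 domains was 10697, 12623, 10404, 12151 and 12283 bp in the young libraries and 10962, 11266, 10784, 10516 and 8313 bp in the old ones. The means were 11632 ± 1007 and 10368 ± 1181 bp (SD, n = 5), a difference of -1264 bp that became -750 bp without old replicate 5, and the ages overlapped. The outer extent, from the first to the last called base, was 13074 ± 514 bp in young and 12541 ± 612 bp in old libraries. The uncalled gaps inside it summed to 1442 ± 499 bp and 2173 ± 573 bp, a difference of 731 bp that became 481 bp without old replicate 5. The domains had a mean of 2.08 ± 0.207 pieces in young and 2.44 ± 0.138 in old libraries, and 187 ± 35.5 and 130 ± 20.4 of the 500 were called in 1 piece. All of these overlapped between ages.

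IP efficiency was 36.4%, 48.2%, 35.1%, 46.5% and 34.6% in the young and 35.1%, 34.5%, 35.8%, 29.5% and 24.5% in the old libraries. Old replicate 5 had the lowest efficiency, the fewest tags (6295930) and the narrowest domains. Young replicate 5 had the lowest efficiency of the young libraries, the most tags of all 10 (15544145), a fragment length of 620 bp and the second widest mean. The part of efficiency, tag number and fragment length in these differences of length was not tested. The share of a library's called length that lay in the domains was 11.1 ± 0.776% (SD, n = 5) in young libraries and 11.2 ± 0.524% in old ones, and the share of its tags in called regions 12.8 ± 1.12% and 12.1 ± 0.433%. The median density was 82.8 ± 10.7 and 69.9 ± 7.24 tags per kb. The ages overlapped in all 3 measures.

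By their means, 325 domains had more pieces in old samples, 106 had more in young samples and 69 had equal numbers. The 500 regions ranked next also leaned to old samples, with 260, 102 and 138, while all 12550 regions had 2150, 1535 and 8865. The values did not overlap for 5 domains, all with more pieces in old samples (1% of the domains, against 0.0637% of all regions). These shares are not like for like. Regions called as 1 piece in every library, 65.3% of all regions but 5.40% of the domains, could not differ in this way. The 5 domains were those of Frmd8 with Neat1, Zbtb16, Cyp2f2, Rbm47 and Alpl.

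**Figure D4:**
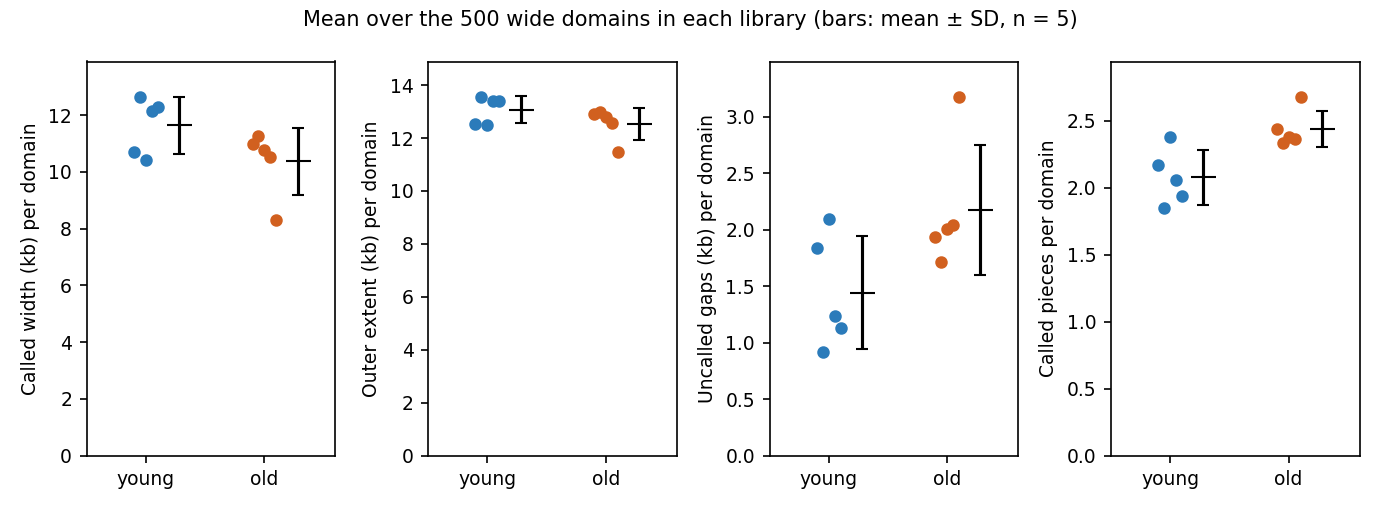
Mean called width, outer extent and uncalled gaps in kb and mean number of called pieces over the 500 domains, with a point for each of 5 young and 5 old libraries and the mean ± SD (n = 5) beside them. Old replicate 5 has the lowest width (8313 bp) and the longest gaps (3171 bp), and the ages overlap in each panel.

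Age differences of single domains were tested with limma over all 12550 regions, on log2 values after each library was centred on its median region, with Benjamini-Hochberg adjusted p-values. Differences are old minus young. Centring matters here, because without it the median region was lower in old samples by -0.11 for width, -0.31 for signal and -0.16 for density on the log2 scale, and the differences below are relative to it. Signal means scaled tags summed over the domain, which grows with called length, while density divides that length out.

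No domain passed for width under limma, and 0.0% of all regions did, with a smallest adjusted p of 0.0615 among the domains. At an unadjusted p under 0.05 there were 72 domains, 22 wider and 50 narrower in old samples (14.4%, against 12.6% of the 500 ranked next and 10.3% of all regions). The centred values did not overlap between ages in 24 domains, 8 wider and 16 narrower (4.80%, against 2.34% of all regions, 1.18% wider and 1.16% narrower). The median difference was -0.02 for the domains and 0.01 for all regions, and it was -0.15 for the domains without centring and 0.01 with cyclic loess scaling. Leaving out old replicate 1 brought 2 domains past the threshold and leaving out old replicate 3 brought 1, with the shares of all regions not given. The share of domains narrower in old samples was 54.6%, 82.2% without centring and 47.4% with cyclic loess, against 48.1%, 70.8% and 47.9% of all regions.

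The largest width difference without overlap was at Selenbp2, which encodes a selenium-binding protein of liver (chr3:94678700-94697665). Its width was 14167, 16468, 15106, 15536 and 13921 bp in young and 6361, 7968, 10745, 5961 and 4857 bp in old samples. Every old sample was below every young one, by a log2 difference of -0.996 ± 0.163 (SE) that did not pass (limma adjusted p = 0.0629). The domain of Noct, a circadian phosphatase, had 9438, 11840, 10765, 12440 and 13247 bp in young and 8033, 8851, 6037, 4467 and 4779 bp in old samples. The ages did not overlap there (-0.76, limma adjusted p = 0.120).

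Signal was the measure in which domains passed. By limma, 14 of the 500 differed at an adjusted p under 0.05, 3 higher and 11 lower in old samples (2.80%, against 1.07% of all regions, 0.534% higher and 0.534% lower). The centred values did not overlap in 37 domains, 7 higher and 30 lower (7.40%, against 5.28% of all regions, 2.33% higher and 2.96% lower). The count was 13 with edgeR's quasi-likelihood test (0.972% of all regions) and 57 with DESeq2 (4.93%). The median difference of the domains was -0.09, with 64.8% lower in old samples, but -0.38 and 93.0% without centring and 0.00 and 49.6% with cyclic loess. Of all regions, 51.7% were lower, 81.2% without centring and 48.8% with cyclic loess. The calls split into 0 higher and 72 lower without centring (14.4%, against 5.78% of all regions, 0.223% higher and 5.55% lower). With cyclic loess they split into 4 and 4 (1.6%, against 0.829% of all regions, 0.47% higher and 0.359% lower). The 500 regions ranked next had a median of -0.08, with 62.6% lower, close to the domains. Their shares past the adjusted threshold and without overlap are not given. The median of scaled tags was 787 in the domains, 502 in the 500 ranked next and 176 over all regions. The part of tag number in the share that passed was not tested.

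The count of 14 also depended on single libraries. It was 25 without young replicate 1, 4 without young replicate 2 or 3, 5 without young replicate 4 and 8 without young replicate 5. It was 11, 3, 6, 3 and 5 without old replicates 1 to 5 in turn. The shares of all regions in these fits are not given, so whether the domains moved more than other regions cannot be told. Of the 14 themselves, 13 passed without young replicate 1 and 3 without old replicate 2 or 4. At an unadjusted p under 0.05, 136 domains differed (27.2%, against 23.4% of the 500 ranked next and 17.2% of all regions). With IP efficiency as a covariate, 0 domains and 0 regions at large passed limma, 103 domains had an unadjusted p under 0.05 (20.6%, against 13.3% of all regions), and each of the 14 kept its direction.

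**Figure D5:**
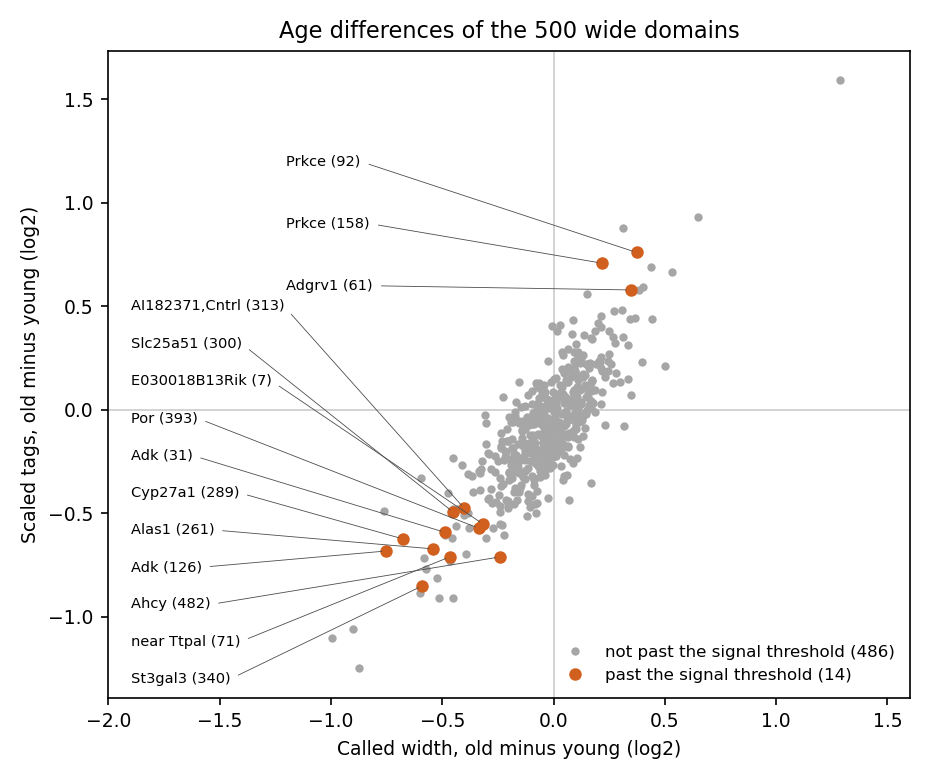
Difference in scaled tags against difference in called width, old minus young on the log2 scale after centring, for each of the 500 domains, with the 14 that passed the signal test in orange, named with their width rank. The points of the 3 higher domains lie at the upper right and those of the 11 lower ones at the lower left, so that the tag and width differences of each have the same sign.

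Ahcy, the enzyme that hydrolyses S-adenosylhomocysteine, the by-product of methylation reactions, had the lowest adjusted p of the 14 (chr2:155066474-155078487, holding the Ahcy start printed above). Its domain had 892, 1072, 802, 1043 and 808 scaled tags in young and 543, 511, 488, 393 and 369 in old samples. Each old sample was below each young one. The log2 difference was -0.71 ± 0.08 (SE, limma adjusted p = 0.00261), and it held in 19 of 20 alternatives, including each of 10 fits that left out 1 library. The exception was IP efficiency as a covariate (limma adjusted p = 0.0543). A second domain at the other end of Ahcy, ranked 472, had 703, 672, 567, 654 and 433 tags in young and 409, 384, 260, 294 and 264 in old samples. Its values did not overlap, and it did not pass (-0.62, limma adjusted p = 0.0688).

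Adk, the kinase that removes adenosine, the other product of the Ahcy reaction, held 2 of the lower domains, 1567 bp apart. The one at chr14:21074194-21092309 had 1022, 978, 754, 1092 and 765 tags in young and 617, 463, 496, 366 and 408 in old samples. The one at chr14:21093876-21120173 had 824, 949, 797, 1006 and 660 tags in young and 572, 407, 482, 470 and 360 in old samples. Neither overlapped between ages. The log2 differences were -0.68 ± 0.12 (limma adjusted p = 0.0269) and -0.59 ± 0.10 (limma adjusted p = 0.0249). They passed in 6 and 4 of the 10 fits that left out 1 library, with adjusted p up to 0.0694 and 0.0603.

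Alas1, the first enzyme of heme synthesis (chr9:106234618-106248913), had 759, 1348, 853, 1020 and 812 tags in young and 693, 522, 519, 404 and 331 in old samples. Por, the reductase that passes electrons to microsomal cytochromes P450 (chr5:135687043-135698600), had 827, 1056, 705, 854 and 784 tags in young and 562, 551, 518, 385 and 327 in old samples. Cyp27a1, a mitochondrial cytochrome P450 that opens the acidic route of bile acid synthesis (chr1:74711878-74726307), had 770, 834, 731, 742 and 561 tags in young and 444, 437, 474, 344 and 253 in old samples. In all 3 the old samples lay below the young ones with no overlap. The log2 differences were -0.67 ± 0.12 (SE, limma adjusted p = 0.0274) for Alas1, -0.57 ± 0.10 (limma adjusted p = 0.0272) for Por and -0.62 ± 0.11 (limma adjusted p = 0.0274) for Cyp27a1. They passed in 2, 5 and 4 of the 10 fits that left out 1 library. Of the genes on the lists, Cyp27a1 (bile acid and drug metabolism) and Ahcy (amino acid metabolism) had an end in a domain that passed. Por (bile acid and drug metabolism) and Klf13 (immediate early and stress genes) had one in their gene bodies.

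The region near Ttpal (chr2:163578972-163598970), 3315 bp from that gene and 18227 bp from the Hnf4a domain ranked 192, had 1105, 1185, 1065, 816 and 738 tags in young and 541, 522, 546, 524 and 317 in old samples. The ages did not overlap, with old replicate 5 far below the others (-0.71 ± 0.15, limma adjusted p = 0.0464). The call held in 2 of the 10 fits that left out 1 library, with adjusted p up to 0.103. The neighbouring Hnf4a domain had 1316, 1312, 1113, 1032 and 711 tags in young and 588, 622, 650, 416 and 237 in old samples. It did not overlap either, and did not pass (-0.88 ± 0.20, limma adjusted p = 0.0565). The Hnf4a domain ranked 442 had 1111, 1262, 1023, 1038 and 774 tags in young and 849, 808, 890, 647 and 607 in old samples. There the ages overlapped (-0.16, limma adjusted p = 0.472).

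The other lower domains were those of E030018B13Rik inside Klf13, Slc25a51, the mitochondrial carrier of NAD, AI182371 with Cntrl, a centrosome protein, and St3gal3, a sialyltransferase. E030018B13Rik had 1646, 2375, 1664, 2401 and 2036 tags in young and 1308, 1242, 1035, 946 and 1055 in old samples (-0.55 ± 0.11, limma adjusted p = 0.0438). Slc25a51 had 1082, 1220, 894, 1121 and 1003 tags in young and 645, 748, 722, 606 and 404 in old samples (-0.49 ± 0.11, limma adjusted p = 0.0464). Neither overlapped. AI182371 with Cntrl had 747, 806, 661, 805 and 613 tags in young and 544, 411, 483, 356 and 352 in old samples (-0.48 ± 0.10, limma adjusted p = 0.0438), with no overlap. St3gal3 had 916, 1112, 832, 756 and 502 tags in young and 409, 347, 589, 305 and 235 in old samples (-0.85 ± 0.18, limma adjusted p = 0.0480), and there young replicate 5 lay below old replicate 3. Each of these 4 passed in 1 or 2 of the 10 fits that left out 1 library. A second domain of St3gal3, ranked 455, held the start of that gene and was shared with Kdm4a. It had 1004.5, 1299.3, 1078.8, 842.1 and 690.9 tags in young and 978.2, 1006.4, 972.7, 890.1 and 792.6 in old samples. The ages overlapped there.

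Prkce held 2 of the 3 domains that were higher in old samples. The one at chr17:86521696-86537263 had 586, 924, 507, 708 and 455 tags in young and 867, 800, 1017, 950 and 662 in old samples. As deposited the ages overlapped, and after centring they did not. The log2 difference was 0.76 ± 0.12 (SE, limma adjusted p = 0.0173), it passed in each of the 10 fits that left out 1 library, and it was 0.46 without centring and 0.85 with cyclic loess. The one at chr17:86492765-86507812 had 518, 737, 467, 528 and 448 tags in young and 707, 690, 890, 862 and 473 in old samples. Its log2 difference was 0.71 ± 0.13 (limma adjusted p = 0.0290), and it passed in 4 of the 10 fits. The third domain of the gene, at chr17:86437012-86448286, had 331, 577, 379, 410 and 344 tags in young and 604, 460, 565, 393 and 246 in old samples. The ages overlapped widely there (0.41 ± 0.15, limma adjusted p = 0.183).

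Adgrv1, an adhesion receptor known from Usher syndrome of the ear and eye, held the other higher domain (chr13:81320799-81338048), with 454, 727, 546, 696 and 548 tags in young and 657, 731, 836, 738 and 621 in old samples. The deposited values overlapped and the centred ones did not. The log2 difference was 0.58 ± 0.10 (SE, limma adjusted p = 0.0272), 0.28 without centring and 0.66 with cyclic loess, and it passed in 3 of the 10 fits that left out 1 library. None of the 3 higher domains passed without centring.

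The median signal difference of the domains at gene ends was -0.12 for transcription factors (-0.42 without centring, 0.00 with cyclic loess), -0.19 for secreted proteins (-0.49 and -0.10), -0.18 for glucose metabolism (-0.48 and -0.08) and -0.27 for bile acid and drug metabolism (-0.56 and -0.18). It was -0.03 for the clock list, -0.32 without centring and 0.08 with cyclic loess, and -0.09 for the amino acid list, -0.39 and 0.03. It was 0.03 for lipid metabolism, -0.26 without centring and 0.12 with cyclic loess. Of the named factors, Rxra had 2314 ± 540 tags in young and 1319 ± 165 in old samples (SD, n = 5), a difference of -0.50 that did not pass (limma adjusted p = 0.0754). Klf15 had 2978 ± 616 and 1820 ± 390 tags (-0.42, limma adjusted p = 0.0795). Cebpb had 1880 ± 369 and 1593 ± 268 tags (0.06, limma adjusted p = 0.799).

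Density, the level per kb, was higher or lower past the threshold in no domain under limma, while 0.319% of all regions passed (0.271% higher and 0.0478% lower). At an unadjusted p under 0.05 there were 53 domains (10.6%, against 13.6% of the 500 ranked next and 14.0% of all regions). Leaving out young replicate 1 brought 1 domain past the threshold, with the share of all regions not given. The centred values did not overlap in 20 domains, 4 higher and 16 lower (4.00%, against 3.72% of all regions, 2.11% higher and 1.61% lower). The median difference was -0.07, with 64.2% lower in old samples, -0.23 and 91.6% without centring, and -0.04 and 59.8% with cyclic loess. Of all regions, 49.2%, 77.3% and 48.5% were lower under these 3 scalings. Among the 14 domains that passed for signal, the density differences ran from -0.47 at Ahcy to 0.48 at the Prkce domain ranked 158. At Cyp27a1 and at the Adk domain ranked 126 they were 0.05 and 0.06, opposite in sign to the tags. The largest differences without overlap were higher near Paqr9 (0.55, limma adjusted p = 0.0819) and at the Prkce domains ranked 158 (0.48, limma adjusted p = 0.0998) and 92 (0.38, limma adjusted p = 0.177). The largest lower ones were near Trpm3 (-0.50, limma adjusted p = 0.126), at Ahcy (-0.47, limma adjusted p = 0.103) and at Osbpl1a, a lipid-binding protein (-0.39, limma adjusted p = 0.164).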

How the data were processed

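Each H3K27ac library came with a list of regions called with HOMER on mm10 against its own input, per the file headers and the submitters' processing notes. Per the file headers, the peak size was 500 bp and the minimum distance between peaks 1000 bp. Required were 4-fold over input and over the surrounding 10000 bp, and a Poisson p of 1e-04 over input. The sources used here give no aligner and no HOMER version. The deposited lists give a signal (tags scaled by the authors to 10000000 per library), unscaled tags in steps of 0.5, used here as estimated counts, the region length in bp, a HOMER score, and a fold ratio over scaled input tags.

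Lists were merged by an overlap of 1 bp, and length and tags were summed per library and merged region. The domains and gene lists were chosen with earlier results of these data known. Age was tested with limma 3.58.1 (R 4.3.3, eBayes with trend) on log2 length, log2 (scaled tags + 1) and log2 (scaled tags per kb + 1) over 12550 regions, each library centred on its median region. The threshold was a Benjamini-Hochberg adjusted p of 0.05. The fits were also run on simulated data with known changes, larger than the differences that passed here, and independent noise per region. No difference in IP efficiency between libraries was simulated, so that run cannot speak for the domains called here. Alternatives were edgeR 4.0.16 and DESeq2 1.42.0 on rounded tags, no centring, a pseudocount of 10, the replicate number as a block, IP efficiency as a covariate, regions at or above the 25th percentile of the score of their list, lists of equal length, filters at 1000 bp or 50 tags, and each library left out. Cyclic loess scaling was chosen after seeing the data.

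Genes came from RefSeq on GRCm38.p6. A domain is named by protein-coding gene ends inside it or within 1 kb, then by gene bodies, then by the nearest gene. Named domains are the 12 widest, those around rank 500, up to 10 per direction past each test or else the 3 largest without overlap, the densest and least dense 5, the 5 with most pieces and the 5 widest in 1 piece, and the 4 widest of each gene list. Some domains that this rule names are not reported here. St3gal3, Hnf4a, the further domains of Prkce, Ahcy and St3gal3, and the printed sequences were added after values were seen. Depth was 6295930 to 15544145 tags per library, and tags without molecular identifiers are not independent molecules.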

Additional observations from a re-analysis of the deposited data

Results flagged for a closer look

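In groups of 5 libraries, 9 of 110 sets of values held 1 library whose gap to its nearest neighbour exceeded 0.71 of the range of its group, and chance gives about 1 in 20. Old replicate 5 accounted for 6 of them. It had the lowest mean domain width (8313 bp, the other old libraries 10516 to 11266 bp), the lowest outer extent (11484.5 bp, others 12558 to 12978 bp) and the longest gaps (3171 bp, others 1712 to 2042 bp). It was also the lowest old library in the width of the Shb domain (8210 bp, others 21883 to 27193 bp), the width of the Prkce domain ranked 92 (12091 bp, others 14788 to 15471 bp) and the tags of the domain near Ttpal (316.9, others 521.5 to 545.8). This library had the lowest IP efficiency (24.5%) and the fewest tags (6295930), and their part in these values was not tested.

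Young replicate 3 had the narrowest Efna1 domain of the young libraries (23208 bp, others 27487 to 28823 bp). Young replicate 2 had the most tags in the Prkce domain ranked 158 (736.6, other young libraries 448.1 to 528.3). Young replicate 5, the library with a fragment length of 620 bp, had the lowest density of the Adcy9 domain (25.04 tags per kb, other young libraries 37.15 to 38.98).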

How the results depend on the processing

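For signal, the 14 domains past the threshold became 72 without centring (0 higher and 72 lower in old samples), 0 with IP efficiency as a covariate, 1 with regions at or above the 25th percentile of their list's score, 1 with lists of equal length, 9 with low regions left out, 57 with DESeq2 (12 higher and 45 lower), 8 with cyclic loess (4 and 4) and 3 to 25 with 1 library left out. The score filter and the equal lists kept 291 and 313 of the 500 domains in the fit, so fewer could pass. The count was 13 with edgeR and 19 with a pseudocount of 10. For the fits without 1 library and those with a filter, block, equal lists or another pseudocount, no share of all regions is given. Whether those counts moved more in the domains than elsewhere cannot be told. Leaving out 1 library gave 0 to 2 domains for width and 0 to 1 for density. Without centring the median difference of the domains was -0.15 for width, -0.38 for signal and -0.23 for density, and cyclic loess gave 0.0039 for signal. The score filter shared 278 of the 500 members, and counting gene bodies put 1 interferon-stimulated gene in a domain. Beyond what the construction of a setting shows, the cause of these changes was not tested. Over single named domains, 334 values under other settings kept their direction and side of the threshold, 136 no longer passed, 3 newly passed and 0 changed direction. The 334 include domains named for width or density, none of which had passed, so the number does not measure how well calls held. All 136 losses fell on the 14 signal domains. Of these 14, 0 kept the call with IP efficiency as a covariate, 7 with cyclic loess, 3 to 13 without 1 library and 14 with DESeq2.

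With the replicate number as a block, 0 domains passed for width, 15 for signal and 0 for density, and of the 14 domains that passed for signal without the block 9 kept the call and 5 lost it. Libraries of the same number deviated together weakly or not at all. The correlations were -0.02 to 0.09 for width, -0.05 to 0.18 for signal and -0.01 to 0.21 for density. A young and an old library of the same number were each other's best match in 0, 1 and 1 of 5 cases. Whether the numbers pair the samples cannot be settled from 5 libraries per age. Each list held 21213 to 30195 regions, and the number of libraries, 5 per age, limits which differences could pass.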

Other observations

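On the X chromosome, outside the rule for the domains, 1 region reached the width of the narrowest domain. It lay at Xiap, an inhibitor of caspases (chrX:42057052-42069829), and was 9430 ± 1622 bp wide (SD, n = 10), with a signal difference of -0.24 that did not pass (limma adjusted p = 0.575). Among autosomal regions called in fewer than 10 libraries, 0 reached that width, and the widest had 6566 bp.

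Signal differences over 1 on the log2 scale were seen in 4 domains, chosen after their values were seen, and none passed the test. Mup20, a major urinary protein gene whose reads can be shared with near-identical copies, had 42.0, 100.8, 48.3, 630.8 and 520.1 tags in young and 370.2, 304.7, 364.7, 421.0 and 362.9 in old samples (1.59, limma adjusted p = 0.235). The young samples fell into 3 low and 2 high values around the old ones. Dap, a mediator of cell death, had 527, 1064, 595, 689 and 514 tags in young and 498.4, 336.6, 475.3, 311.8 and 21.4 in old samples (-1.25, limma adjusted p = 0.318). Old replicate 5 had 860 bp called there.

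Egfr, the receptor of epidermal growth factor, had 2032, 1428, 1450, 910 and 554 tags in young and 445, 389, 661, 455 and 372 in old samples (-1.06, limma adjusted p = 0.0925). Selenbp2 had 850, 1235, 1123, 814 and 514 tags in young and 293, 314, 748, 219 and 254 in old samples (-1.10, limma adjusted p = 0.0697). In both, young replicate 5 lay below old replicate 3 and above the other old samples.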
